A study of Medicago sativa with 15 samples.

Results

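Roots of alfalfa (Medicago sativa) seedlings kept for 24 h under alkaline stress were compared with roots kept for 8 h under the same stress, and each change was placed beside the level in unstressed control roots. The comparison rests on 6 of the 15 libraries in the series, 3 at 24 h and 3 at 8 h, picked by the time and replicate number in their labels. The stress was NaHCO3 at 50 mmol/L, the 3 control libraries came from roots under normal conditions, and the 6 libraries of 4 h and 12 h served to estimate the spread and to form gene lists. The labels name no cultivar, seedling age or clock time, and do not say whether replicates came from separate plants, so a p-value here is set against a scatter among libraries that could be technical. A longer stress and a later time of sampling cannot be told apart, since no unstressed root was sampled at 24 h or 8 h.

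Bicarbonate buffers the root surface at a high pH, where iron and phosphate become hard to take up, while the sodium adds an ionic and osmotic load. Roots are known to answer with proton pumping, organic acid release, sodium export and scavenging of reactive oxygen, some of it early and some after hours of adjustment. The gene IDs in the files carry no names, and 0 of the 164632 IDs occur in the RefSeq gene table of alfalfa. No change could therefore be assigned to these processes, no root marker could be looked up, and genes are described by their direction, level and time course.

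The libraries held 7277241 to 14655976 counts at 24 h, 7621064 to 15180708 counts at 8 h and 11266060 to 14262860 counts in control roots. The shallowest library of each stressed group in this comparison also lay between the other 2 libraries of its group at most genes. For 24 h replicate 1 this held at 72.1% of 18078 genes with at least 300 counts in the group, and for 8 h replicate 3 at 75.6% of 18747 genes. In the other 24 h and 8 h libraries the share was 12.1% to 14.5%, and in control libraries 23.1% to 38.8%. These 2 libraries are called intermediate below, and the main results are given with and without them. Whether they hold RNA or reads of the other 2 libraries of their group was not tested. If they do, each time has only 2 independent libraries, and every p-value, SD and SE that counts 3 is too small.

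With the intermediate libraries left out, roots of 24 h and 8 h differed from each other more than the 24 h replicates did, but not consistently more than the 8 h replicates did. Levels are given as CPM, the count of a gene divided by the total of its library and scaled alike in all libraries. Over 27967 genes with a mean of at least 5 CPM, the typical gene differed by 0.79 to 0.88 in log2(CPM + 1) between a 24 h and an 8 h library (medians of 4 pairs, intermediate libraries left out). The same median was 0.71 between 24 h replicates 2 and 3, and 0.82 between 8 h replicates 1 and 2. The range between times thus lay above the 24 h pair but enclosed the 8 h pair. Stressed libraries stood further from control libraries, at 0.95 to 1.01 for 24 h and 0.98 to 1.09 for 8 h, and the control libraries closer to one another, at 0.45 to 0.63. Pearson correlations, which are across genes and describe these libraries only, gave the same order for 24 h: 0.608 to 0.672 for 24 h with 8 h, and 0.719 within 24 h. Within 8 h the correlation was 0.651, so that 8 h replicate 1 resembled both 24 h replicates (0.663 and 0.672) at least as closely as it resembled 8 h replicate 2. Pairs that include an intermediate library differed less, by 0.39 within 24 h and 0.43 to 0.45 within 8 h, against 0.65 to 0.80 between the times. The intermediate libraries correlated at 0.884 and 0.893 with their 24 h partners, at 0.864 and 0.873 with their 8 h partners, and at 0.731 with each other.

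**Figure D1:**
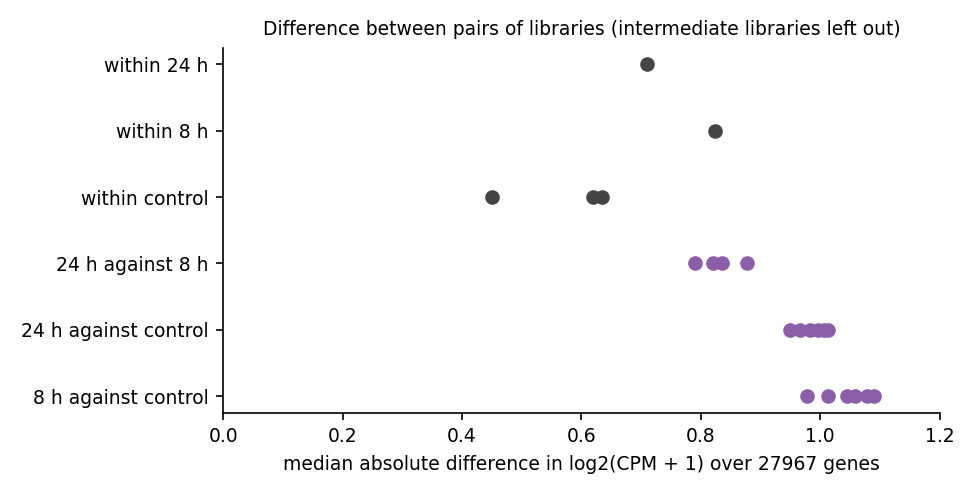
Median absolute difference in log2(CPM + 1) between pairs of libraries over 27967 genes (x axis), by kind of pair (y axis), each point 1 pair, with the intermediate libraries left out. The pairs of 24 h with 8 h (0.79 to 0.88) enclose the pair within 8 h (0.82) and lie below all pairs that join stress and control (0.95 to 1.09).

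Between 24 h and 8 h, 929 genes rose and 925 fell at 24 h, among 68605 genes tested with edgeR's quasi-likelihood test on all 15 libraries (Benjamini-Hochberg adjusted p below 0.05). The called genes were 2.7% of those tested, 1.35% higher and 1.35% lower. The changes were large where they were called. The smallest fold was 2.65 among higher genes and 2.34 among lower genes, and at least 4-fold differences made up 862 of the 929 and 860 of the 925. For the same genes without the intermediate libraries the smallest folds were 2.44 and 2.39, and 845 and 864 differed by at least 4-fold. With genes that had no count at 1 of the times set at their lower bound, the median fold was 15.1 among higher genes and 12.0 among lower genes. Large fitted differences were also common outside the calls: 15276 genes (22.3%) differed by at least 4-fold, and 1722 of these (11.3%) passed the test. In the fit of the other 13 libraries, 17607 of 72969 genes (24.1%) differed by as much. Calls were spread over all levels, with a share called of 0.80% among genes with a mean below 1 CPM and 6.49% among those of 100 CPM or more.

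The calls depended on the intermediate libraries. Without 24 h replicate 1 and 8 h replicate 3, edgeR called 0 of 72969 genes, with a smallest adjusted p of 0.0533 and 7083 genes (9.71%) at an unadjusted p below 0.05. On the same 13 libraries limma-voom called 39 genes (0.0534%), 28 higher and 11 lower, and DESeq2 called 1645 (2.25%), 825 higher and 820 lower. All 39 limma-voom calls were among the 1854 edgeR calls in the same direction, as were 683 of the 825 and 683 of the 820. Leaving out only 24 h replicate 1 gave 209 calls in edgeR and leaving out only 8 h replicate 3 gave 213. All 1854 genes kept their direction without both libraries, and 1851 of them had an unadjusted p below 0.05 there, in a fit that shares libraries with the first. The genes were chosen on libraries that include these, and the times did not overlap at most of them. Both results thus follow largely from the choice. The fit of 13 libraries keeps 4 h replicate 2 and 12 h replicate 1. Without these too, edgeR called 0 of 71665 genes, with a smallest adjusted p of 0.422. There 4437 genes (6.19%) had an unadjusted p below 0.05, among them 1829 of the 1850 main calls tested. The main calls were chosen on libraries that include these, so their part in that number follows largely from the choice.

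**Figure D2:**
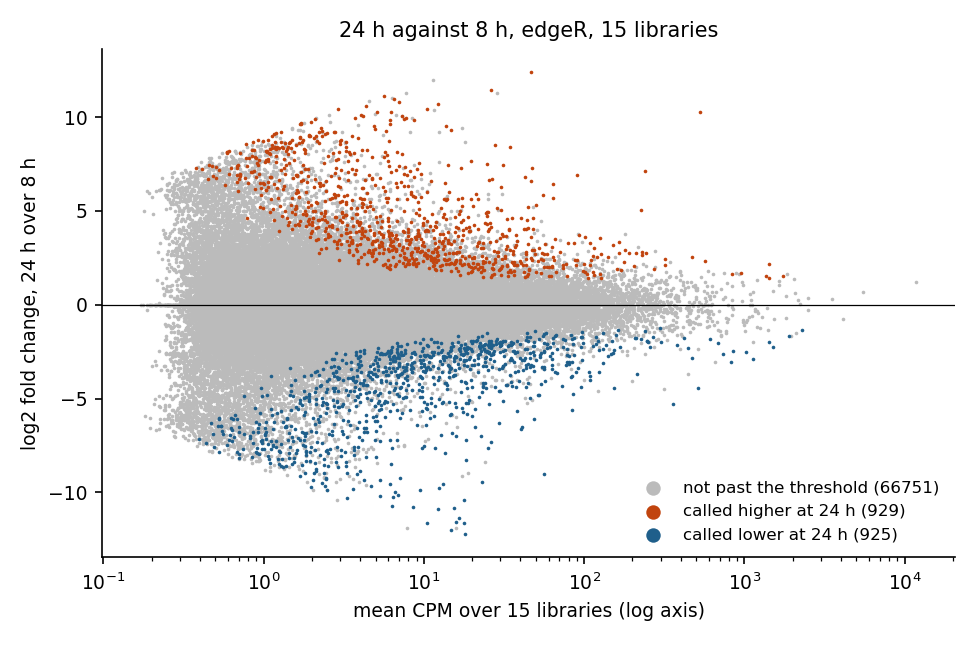
Log2 fold change of 24 h over 8 h (y axis) against mean CPM over 15 libraries (x axis, log scale) for 68605 genes, each point 1 gene. The 929 genes called higher and the 925 called lower lie at the edges of the cloud on both sides, and many genes with folds as large did not pass the test.

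Libraries of the 2 times did not overlap at 910 of the 929 genes called higher and at 908 of the 925 called lower. Over all genes tested, every 24 h library stood above every 8 h library at 10558 genes (15.4%) and below at 10685 (15.6%). With the intermediate libraries left out the numbers were 910 and 909 of the called genes, and 12118 (17.7%) and 12195 (17.8%) of all genes tested. The test used these values, so the separation of called genes is a description of them. Few libraries can separate by their order alone, more easily with 2 against 2, and the shares over all genes were not compared with that. Low levels lie near the floor of log2(CPM + 1), which by itself keeps replicates close there. For higher genes the median difference in log2(CPM + 1) was 0.77 between 24 h replicates 2 and 3, and 0.25 between 8 h replicates 1 and 2, and for lower genes it was 0.28 at 24 h and 0.84 at 8 h. The means of the 2 times differed by 2.20 for higher and 2.12 for lower genes, against 0.54 over all genes tested, where replicates differed by 0.65 at 24 h and 0.68 at 8 h. The differences between times are between means of 2 libraries, and those of replicates between single libraries. Means scatter less, so the 2 kinds of difference cannot be compared directly.

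Together the called genes took up a sizeable part of the transcriptome. Genes called higher held 4.92%, 4.85% and 4.80% of the counts in 24 h replicates 1, 2 and 3, against 0.935%, 0.941% and 0.943% in 8 h replicates 1, 2 and 3. Control libraries, which entered the choice of these genes only through the filter and the spread, gave them 3.18%, 2.89% and 2.76%. The control share was thus below every 24 h library and above every 8 h library. Genes chosen for a wide difference between 24 h and 8 h would place most other groups between them, so this and the shares below are a description only. Genes called lower held 1.07%, 1.09% and 1.13% of the counts at 24 h, against 5.88%, 5.83% and 5.79% at 8 h. In control roots they held 2.84%, 2.82% and 3.09%, again between the stressed times. The remaining stressed groups also lay between for both lists, with 1.98% to 2.49% at 4 h and 1.98% to 2.37% at 12 h for genes called higher, and 4.17% to 4.86% at 4 h and 2.69% to 3.91% at 12 h for genes called lower.

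**Figure D3:**
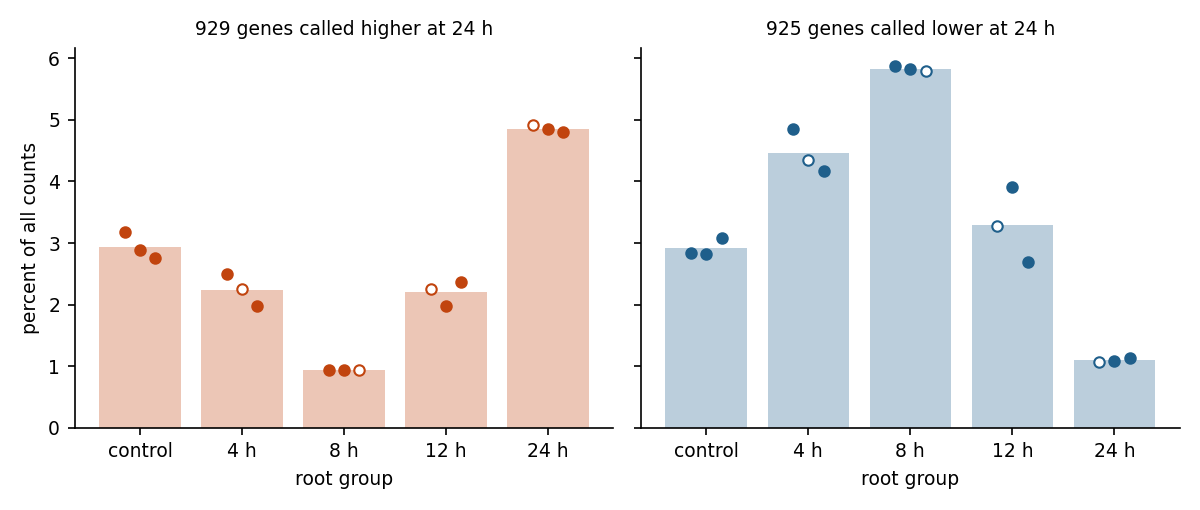
Percent of all counts (y axis) held by the 929 genes called higher (left) and the 925 called lower (right) at 24 h against 8 h, in each root group (x axis). Points are libraries, open points the intermediate library of each stressed group, bars group means. The 24 h and 8 h values set the choice of genes, and the control, 4 h and 12 h values lie between them.

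MS.gene03600 (coding length 465 nt) showed the widest gap between the times among genes called higher. It stood at 893, 1467 and 172 CPM in 24 h replicates 1, 2 and 3, against 0.734, 0.790 and 0.525 CPM in 8 h replicates 1, 2 and 3. Control libraries had 392, 325 and 110 CPM. The lowest 24 h library was far above the highest 8 h library, and the 24 h range enclosed most of the control range. Its pooled level was 1113-fold higher at 24 h (27352 counts at 24 h and 26 at 8 h, 95% exact interval 759 to 1704, counting error only), and its log2 fold change was 10.26 ± 1.26 (SE, edgeR adjusted p = 0.00226). At 4 h it had 2051, 1061 and 62.7 CPM and at 12 h 508, 447 and 464 CPM, so that of the 5 groups 8 h was the only one where every library was below 1 CPM.

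MS.gene063813 (954 nt) had 105, 117 and 91.7 CPM at 24 h, against 0.00, 0.527 and 0.394 CPM at 8 h. In control roots it had 64.1, 44.8 and 58.6 CPM, below each 24 h library and above each 8 h library. Its pooled level was 343-fold higher at 24 h (95% exact interval 192 to 688, counting error only), with a log2 fold change of 8.41 ± 1.10 (SE, edgeR adjusted p = 0.00244). It had 10.7, 14.2 and 11.5 CPM at 4 h and 0.146, 0.00 and 1.23 CPM at 12 h, so it was near the bottom of its range at 8 h and 12 h.

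Among genes called lower, MS.gene044331 (1236 nt) had the widest gap. At 24 h it had 0.137, 0.00 and 0.136 CPM, against 37.4, 108 and 59.7 CPM at 8 h. Control roots had 0.701, 1.26 and 0.888 CPM, a level above every 24 h library but far below every 8 h library. The pooled level was 818-fold lower at 24 h (3 counts at 24 h and 2596 at 8 h, 95% exact interval 280 to 3970, counting error only), and the log2 fold change was -9.43 ± 0.95 (SE, edgeR adjusted p = 0.00105). It had 3.97, 14.1 and 25.5 CPM at 4 h and 32.2, 38.3 and 24.8 CPM at 12 h, so its group mean was highest at 8 h.

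MS.gene60838 (828 nt) differed from this in its control level. It had 0.412, 0.640 and 0.819 CPM at 24 h, against 66.6, 50.0 and 59.7 CPM at 8 h, and 49.4, 47.7 and 40.6 CPM in control roots. The 8 h libraries all lay above the control libraries, by less than 2-fold, and the 24 h libraries lay far below both. Its pooled level was 87.2-fold lower at 24 h (23 counts at 24 h and 2121 at 8 h, 95% exact interval 58.0 to 138, counting error only), with a log2 fold change of -6.49 ± 0.89 (SE, edgeR adjusted p = 0.00280). At 4 h it had 41.7, 65.8 and 76.1 CPM, and at 12 h 41.2, 73.6 and 2.46 CPM, where replicate 3 alone was low.

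The 4 genes were the 2 with the widest gap in each direction, so their separation follows from the choice. Without the intermediate libraries their log2 fold changes were 10.06, 8.54, -9.81 and -6.33 in the order above, and none passed (edgeR adjusted p = 0.0961, 0.124, 0.0533 and 0.124). Over all 31 alternative fits their adjusted p ran from 1.14e-24 to 0.751, and MS.gene03600 and MS.gene60838 passed in 27 of the 31, MS.gene063813 and MS.gene044331 in 28. These fits share libraries, and most keep 24 h replicate 1, 8 h replicate 3 or both. Every fit where a gene did not pass had left out both. On the 13 libraries without them DESeq2 passed all 4 genes, and limma-voom passed only MS.gene063813 and MS.gene044331. Alleles of this tetraploid and near-identical copies can share reads, so the level of a single ID is uncertain to that extent.

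**Figure D4:**
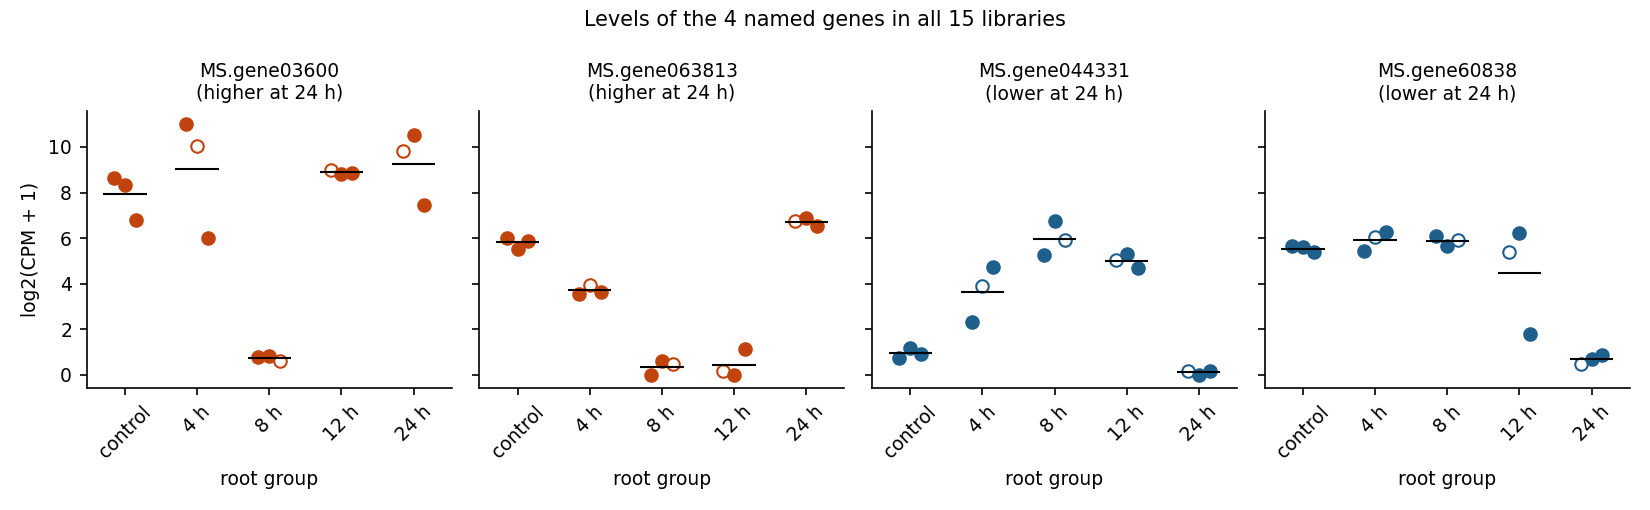
Level of the 4 named genes as log2(CPM + 1) (y axis) in control roots and at 4, 8, 12 and 24 h of stress (x axis). Points are libraries, open points the intermediate library of each stressed group, lines group means; MS.gene03600 is low at 8 h, MS.gene063813 at 8 h and 12 h, and the pair on the right is near 0 at 24 h.

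The control level of a called gene usually lay between its 2 stressed levels. Among genes called higher the control mean lay between the means of 24 h and 8 h at 582 of 929 (62.6%), above both at 272 (29.3%) and below both at 75 (8.07%). Over all 34053 genes with a higher fitted value the control lay between at 28.0%, above both at 40.2% and below both at 31.8%. Genes called lower gave a similar picture, with 555 of 925 (60.0%) between, 310 (33.5%) above both and 60 (6.49%) below both, against 28.2%, 38.6% and 33.3% of 33963 genes with a lower fitted value. A wide gap between 24 h and 8 h leaves more room between them, so the comparison with all genes is a description only. Without the intermediate libraries the control lay between at 575 of the 929 and 551 of the 925.

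**Figure D5:**
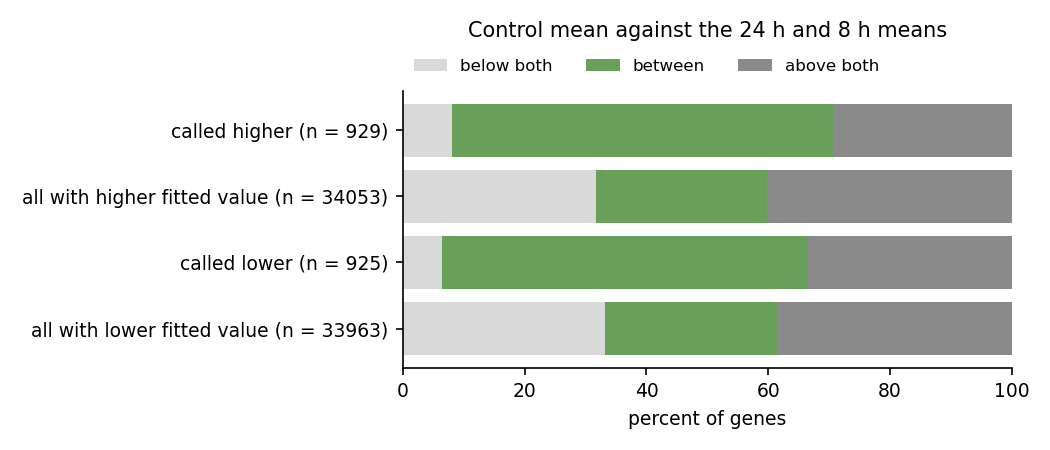
Percent of genes (x axis) whose control mean lies below both, between or above both of the 24 h and 8 h means, for called genes and for all genes with a fitted value of the same sign (y axis). The control lies between at 62.6% of genes called higher and 60.0% of those called lower, against 28.0% and 28.2% of all genes of that sign.

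Called genes were then sorted by which time stood near control, taking near as within 2-fold and far as 4-fold or more in CPM + 1. Of the genes called higher, 238 (25.6%) were near control at 24 h and far from it at 8 h, and 120 (12.9%) were far at 24 h and near at 8 h. MS.gene063813 belongs to the first kind. Of the genes called lower, 121 (13.1%) were near control at 24 h and far at 8 h, and 206 (22.3%) were far at 24 h and near at 8 h, MS.gene60838 among these. Over all genes tested the 2 kinds made up 2.13% and 1.98%. Both kinds require a wide difference between 24 h and 8 h, and called genes were chosen for one. The comparison with all genes is thus a description only. Levels on opposite sides of control by at least 2-fold each were found at 119 higher and 123 lower genes, and levels on the same side by at least 2-fold each at 125 and 151. The median difference from control in log2(CPM + 1) was 0.71 at 24 h and -1.65 at 8 h for genes called higher, and -1.62 at 24 h and 0.66 at 8 h for genes called lower. Without the intermediate libraries the counts near at 24 h and far at 8 h were 242 higher and 117 lower genes, and those far at 24 h and near at 8 h were 118 and 205.

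Some genes had no count in any library of 1 of the times. A call favours genes with a low level at 1 time, so their share among calls beside that of all genes is a description only. Among genes called higher, 194 (20.9%) had counts at 24 h and none at 8 h, while 2291 of all genes tested (3.34%) had none at 8 h. Against 3 counts over the 8 h libraries, these were at least 5.46-fold to 670-fold higher at 24 h, with a median bound of 35.9-fold. Their median level was 2.96 CPM at 24 h and 1.71 CPM in control roots, where 17 of them had no count. At 12 h 13 of the 194 had no count, and at 4 h 59. Among genes called lower, 193 (20.9%) had no count at 24 h and counts at 8 h, while 2565 of all genes tested (3.74%) had none at 24 h. They were at least 5.40-fold to 583-fold lower at 24 h, with a median bound of 23.4-fold, and stood at 2.04 CPM at 8 h and 1.94 CPM in control roots, where 3 had no count. Of all 68605 genes tested, 886 had no count in control roots, so being read there is usual and no trait of these genes. Over the 4 libraries that were not intermediate, 194 of the called higher genes had no count at 8 h and 195 of the called lower genes none at 24 h.

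The 12 h libraries, which entered the calls only through the filter and the spread, were placed against the times compared. Of the genes called higher, 700 (75.3%) had a 12 h mean between those of 24 h and 8 h, 162 (17.4%) above both and 67 (7.21%) below both. Of the genes called lower, 684 (73.9%) lay between, 210 (22.7%) above both and 31 (3.35%) below both. Over all genes with a fitted value of the same sign, 33.0% lay between in either direction. The 4 h mean, from outside the interval of 8 h to 24 h, also lay between at 645 of the higher (69.4%) and 538 of the lower genes (58.2%), so a place between the means is no sign of an intermediate step. The distance of the 12 h level from 8 h was 0.55 of the distance from 8 h to 24 h on log2(CPM + 1) for the median higher gene and 0.31 for the median lower gene, against 0.48 over all genes tested. Without the intermediate libraries of 24 h, 8 h and 12 h these were 0.55, 0.31 and 0.48, and the 12 h mean lay between at 689 and 674 genes.

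Gene lists formed only on control, 4 h or 12 h libraries were followed in the same comparison, where 1.35% of all genes tested were called in each direction. The numbers of list genes called are from the fit of 15 libraries. Without the intermediate libraries of 24 h and 8 h edgeR called 0 genes, in the lists as elsewhere. In both directions together, calls made up 0.80% of genes below 1 CPM, 3.43% from 5 to 20 CPM and 4.86% from 20 to 100 CPM. The lists were not matched to all genes by level. Of 2160 genes raised at 4 h (every 4 h library at least 2-fold above every control library in CPM + 1), 37 (1.71%) rose and 92 (4.26%) fell at 24 h against 8 h, with a median log2 fold change of -0.28, while the median over all genes tested was 0.00. Their median level was 7.12 CPM at 24 h, 8.76 CPM at 8 h, 2.44 CPM in control roots and 19.1 CPM at 4 h. Of 5031 genes lowered at 4 h by the same measure, 163 (3.24%) rose and 112 (2.23%) fell, against 1.35% of all genes tested in each direction, with a median of 0.21 and median levels of 3.18 CPM at 24 h, 2.61 CPM at 8 h, 11.3 CPM in control roots and 0.693 CPM at 4 h. The median level of each list thus stood nearer control at 24 h than at 8 h, and on the same side of it at both times. The lists were chosen for control levels apart from 4 h, which by itself tends to place other groups on the 4 h side. The side is therefore a description only. Without the intermediate libraries of 24 h and 8 h the medians were -0.31 and 0.16, and forming the lists without the intermediate 4 h library gave -0.27 and 0.21.

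The lists formed at 12 h moved less. Of 1488 genes raised at 12 h, 32 (2.15%) rose and 61 (4.10%) fell at 24 h against 8 h, beside 1.35% each over all genes tested, with a median log2 fold change of -0.13. Of 3247 genes lowered at 12 h, 129 (3.97%) rose and 110 (3.39%) fell, with a median of 0.11. The medians were -0.14 and 0.07 without the intermediate libraries of 24 h and 8 h. The SD of a list's median level between libraries of a time was 0.11 for the raised and 0.14 for the lowered list on log2(CPM + 1), so these shifts were of about the size of the spread between libraries. It was 0.15 for both 4 h lists, below the shift of the raised list, while the shift of the lowered list without the intermediate libraries (0.16) was of the size of the SD. These SDs count the intermediate libraries, and the shifts are fitted log2 fold changes, so the comparison is rough. The library medians of the raised 4 h list were 3.03, 2.74 and 3.14 at 24 h and 3.18, 3.14 and 3.25 at 8 h. The times nearly met there, and 24 h replicate 2 was the lowest. The library medians of the lowered 4 h list overlapped between times, with 2.06, 2.01 and 1.76 at 24 h and 1.61, 1.67 and 1.86 at 8 h on log2(CPM + 1).

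The 500 genes most abundant in control roots changed in both directions alike. Of the 499 tested, 19 (3.81%) rose and 20 (4.01%) fell at 24 h, beside 1.35% each over all genes tested and 6.49% in both directions together among genes of 100 CPM or more. Their median log2 fold change was -0.04, or -0.06 without the intermediate libraries. Their median level was 173 CPM at 24 h and 175 CPM at 8 h, against 348 CPM in control roots. It was 201 CPM at 4 h and 203 CPM at 12 h. Because the list was chosen for high control levels, a lower level elsewhere follows in part from the choice. Genes with no count in control roots were 71539 in number, of which 886 passed the filter on low counts, and they could pass only through stressed libraries. Of these, 25 (2.82%) rose and 3 (0.339%) fell at 24 h, beside 1.35% each over all genes tested. Their median log2 fold change was 0.43 with 15 libraries but 0.00 over 1574 tested genes without the intermediate libraries.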

How the data were processed

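The values were used as deposited by the authors: raw read counts per gene, and FPKM, which equal the counts divided by library total and a fixed coding length, from which the lengths were derived (95.96% multiples of 3). RNA came from a column kit and a SMARTer mRNA library kit, per the labels' protocols; the sources used here do not name aligner, counter, strand setting or genome build. Groups follow the sample titles. The test was edgeR 4.0.16 under R 4.3.3 (filterByExpr, TMM, quasi-likelihood, 5 groups, 15 libraries, two-sided, Benjamini-Hochberg over all genes tested, threshold 0.05), after a check on simulated data. The standard error is the log2 fold change divided by the square root of F. Alternatives used limma 3.58.1 and DESeq2 1.42.0. CPM is the count scaled by the library total. Named genes are the 2 in each direction with the widest gap in log2(CPM + 1) between the nearest libraries of the times, among called genes whose libraries do not overlap. The comparison, lists and intermediate libraries were chosen with earlier results of these data known. The sorting by distance from control and the means without intermediate libraries were added after seeing the data. Reads carry no molecular identifiers, so intervals and floors cover counting error only.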

Additional observations from a re-analysis of the deposited data

How the results depend on the processing

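The numbers of genes called higher and lower at 24 h stayed within 1.5 times 929 and 925 with DESeq2 size factors, upper-quartile scaling, a CPM filter, limma-voom, a limit of 2-fold and, on 13 libraries, DESeq2. They were 1850 and 1734 with no filter on low counts, 3736 and 3604 with DESeq2 on 15 libraries, 1473 and 1463 with only the 6 libraries of 24 h and 8 h, and 97 and 92 at a threshold of 0.01. With limma on FPKM they were 1939 and 1539 for log2(FPKM + 1), 1687 and 1515 for log2(FPKM + 0.1), and 1964 and 1596 with no filter. Without intermediate libraries edgeR called 0 and 0 genes on 13, on 11 and on 4 libraries, and limma-voom 28 and 11 on 13. In these edgeR fits 7083 (9.71%), 4437 (6.19%) and 3467 (6.23%) of the genes tested had an unadjusted p below 0.05. The cause was not tested. Libraries of 24 h and 8 h with the same replicate number showed no positive correlation of their deviations from the group means. The values were -0.040, -0.002 and -0.047 for numbers 1, 2 and 3 over 27967 genes. Control, 4 h and 12 h libraries were not compared in this way, and these values cannot settle whether replicates were paired. With the number as a replicate block 435 and 445 genes were called. Leaving out 1 library gave 70 to 1351 higher and 71 to 1472 lower genes. In both directions together, dropping 24 h replicate 1, 2 or 3 left 209, 581 or 688 calls, while dropping 8 h replicate 1, 2 or 3 left 880, 683 or 213. Leaving out control replicate 1 gave 1153, leaving out 12 h replicate 1 gave 781, and leaving out 4 h replicates 2 or 3 gave 844 or 2823. The balance of directions moved with the time that lost a library: without an 8 h library 32.9% to 33.8% of calls were higher at 24 h, and without a 24 h library 63.5% to 66.0%. The 4 named genes kept their direction in all 31 alternatives. They were chosen for libraries of 24 h and 8 h that do not overlap, so this follows from the choice. Depth limits the genes without a count, whose folds are bounds.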

Other observations

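The number of genes read did not separate the times. At an equal depth of 6863315 counts, 75185, 67431 and 70839 genes were expected to have a count in 24 h replicates 1, 2 and 3, and 69627, 70059 and 75547 in 8 h replicates 1, 2 and 3, against 71580 to 76547 in control libraries. The intermediate library had the most in both stressed groups. The 10 most abundant genes of each library held 6.16%, 6.35% and 5.70% of the counts at 24 h, 4.81%, 5.64% and 4.57% at 8 h, and 2.74% to 3.20% in control roots. Each 24 h library lay above each 8 h library, and all of them above control (with 3 libraries against 3, an exact two-sided permutation test cannot go below 0.10, and none was run). The median coding length was 966 nt for genes called higher at 24 h, 1152 nt for genes called lower and 1152 nt for all genes tested.

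The deviations of the intermediate libraries from their group means, 24 h replicate 1 with 8 h replicate 3, correlated at 0.154 over 27967 genes, and the other 8 pairs of a 24 h and an 8 h library at -0.047 to 0.014. These are across genes and describe the libraries only.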
